A study of Drosophila melanogaster with 3 samples.

Results

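The steroid-triggered cell death genes of Drosophila melanogaster examined here are 9 genes of the core apoptosis pathway, among 18164 annotated genes on the 6 chromosome arms used. They were chosen by name and role. They comprise the 4 antagonists rpr (reaper), hid, grim and skl (sickle), their target Diap1, the apoptosome genes Dark and Dronc, and the effector caspase genes Drice and Dcp-1. At each, the position and strength of CG31627-GFP peaks were read at annotated start sites, across the gene body plus 5 kb on either side, and in the intergenic sequence that joins hid, grim and rpr.

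In this pathway Diap1, an inhibitor of apoptosis and ubiquitin ligase, holds caspases in check, and the antagonists bind Diap1 and release them. Dark, the fly counterpart of Apaf-1, then activates the initiator caspase Dronc, which cleaves the effector caspases Drice and Dcp-1. At metamorphosis, pulses of the steroid hormone ecdysone induce rpr and hid in larval tissues that are to be destroyed, such as the midgut and the salivary glands, and the balance between these genes and Diap1 sets when the tissues die. The white prepupa marks the onset of metamorphosis, when the late larval pulse acts.

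The chromatin came from whole white prepupae, males and females together, of a single transgenic line with GFP fused to the C-terminus of CG31627. It was sheared by sonication to between 200 and 800 bp and precipitated with an antibody to GFP, although the antibody field of the labels reads CG31627. All 3 libraries are biological replicates of the same line and stage, and no other genotype, stage or treatment was compared, so each result below is a description over 3 libraries, with no test. Control data were not analysed here, and since whole animals were used, the tissues in which a site was bound cannot be told apart. Reproducible peaks are those of the authors' IDR list, filtered by them on irreproducible discovery rate, which held 28.3% of the 27240 peaks called on the pooled libraries. The library lists held 30000, 28593 and 25547 peaks for replicates 1, 2 and 3 and include background, so from each library as many of its strongest peaks as the IDR list holds were used beside that list and are called its strongest peaks. Signal is the authors' own value for each peak, on a scale not given in the sources used here, and was read only within a list, where rank 1 is the strongest peak. The IDR peaks keep their pooled signal, so their ranks share reads with the library ranks set beside them. A filter on reproducibility also favours peaks that agree between libraries, so such agreement at IDR peaks is in part built in.

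Sequence at 8 of the peaks described below is shown first. The windows hold 50 bp on either side of the summit, in the Release 6 genome (dm6), where the summit is the base the authors give as the peak's highest point, read 5′ to 3′ on the plus strand. The first 5 are the strongest peaks in the span from hid to rpr, named by their distance upstream of the hid start site, and the others are the nearest upstream peak of rpr, the strongest peak in Diap1 and the start-site peak of Drice. Capitals mark a 10-base run that the strongest pair of windows shares, a TATAAA match at hid +5.02 kb, and a match to TTTAAAAA on the opposite strand in the Drice window.
hid +50.4 kb, chr3L:18235985-18236085: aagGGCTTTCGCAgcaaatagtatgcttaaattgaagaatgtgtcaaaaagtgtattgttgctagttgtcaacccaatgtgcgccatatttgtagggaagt
hid +0.293 kb, chr3L:18185884-18185984: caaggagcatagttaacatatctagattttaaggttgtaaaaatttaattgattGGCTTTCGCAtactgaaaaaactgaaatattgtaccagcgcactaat
hid +9.54 kb, chr3L:18195135-18195235: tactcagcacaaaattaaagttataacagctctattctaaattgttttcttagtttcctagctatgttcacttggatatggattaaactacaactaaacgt
hid +5.02 kb, chr3L:18190612-18190712: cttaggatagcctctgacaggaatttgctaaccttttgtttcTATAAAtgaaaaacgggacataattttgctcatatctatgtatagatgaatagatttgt
hid +8.88 kb, chr3L:18194469-18194569: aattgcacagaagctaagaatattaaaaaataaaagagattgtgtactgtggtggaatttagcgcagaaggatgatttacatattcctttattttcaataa
rpr, chr3L:18403277-18403377: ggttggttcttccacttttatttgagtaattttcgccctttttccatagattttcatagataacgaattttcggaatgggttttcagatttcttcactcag
Diap1, chr3L:16046142-16046242: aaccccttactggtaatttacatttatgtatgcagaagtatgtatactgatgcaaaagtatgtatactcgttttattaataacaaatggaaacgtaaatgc
Drice, chr3R:29799562-29799662: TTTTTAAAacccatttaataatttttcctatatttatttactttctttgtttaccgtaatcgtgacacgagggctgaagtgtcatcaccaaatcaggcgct

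All 8 windows are rich in A and T, from 61.4% at hid +50.4 kb to 71.3% at hid +8.88 kb, beside a median of 67.3% over all IDR summits. The 10-base run ggctttcgca begins 47 bases before the summit at hid +50.4 kb and 4 bases after the summit at the hid promoter. It was found by comparing the 5 windows of the span with each other, on both strands, after their values were seen, and the next longest run shared by any pair of them was 8 bases. Of all IDR windows these were the only 2 with the run on either strand, a share of 0.0259%. Among promoter windows, 250 bp before to 50 bp after a start site, 17 of 23998, or 0.0708%, held it. The shared run is a description of the letters and names no factor.

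Of the 9 genes, 3 had an IDR summit within 500 bp of a start site: hid, Drice and Dcp-1. That share, 33.3%, stands beside 22.3% of all genes and 26.4% of protein-coding genes, a difference of less than 1 gene in 9 from the protein-coding share, so promoter peaks were about as frequent among the death genes as elsewhere. The same 3 genes, and no other member, had a start-site summit among the strongest peaks of every library, a count of 3.0 ± 0.0 (SD, n = 3), where the shares of all genes were 22.4%, 20.5% and 23.1% in replicates 1, 2 and 3. The member just inside the 500 bp limit was hid, at 293 bp, and the member just outside was Diap1, at 599 bp.

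Widening the search to the gene body plus 5 kb brought the count to 7 of 9, all but grim and skl, beside 56.8% of all genes and 59.7% of protein-coding genes. These 7 genes had 17 IDR summits between them, and 13 of those peaks held a summit of the strongest peaks of every library. A library peak that overlapped 2 IDR peaks was counted where its summit fell. By annotation, 11 of the 17 lay within 500 bp of a start site of some gene, 4 in introns, 1 in a 3′ UTR and 1 between genes. The antagonists held 2 of the 17, Diap1 held 6, the apoptosome genes 4 and the effector caspase genes 5. Only 3 of the 11 start-site summits were at a start site of a death gene, and the other 8 lay at start sites of neighbours.

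**Figure D1:**
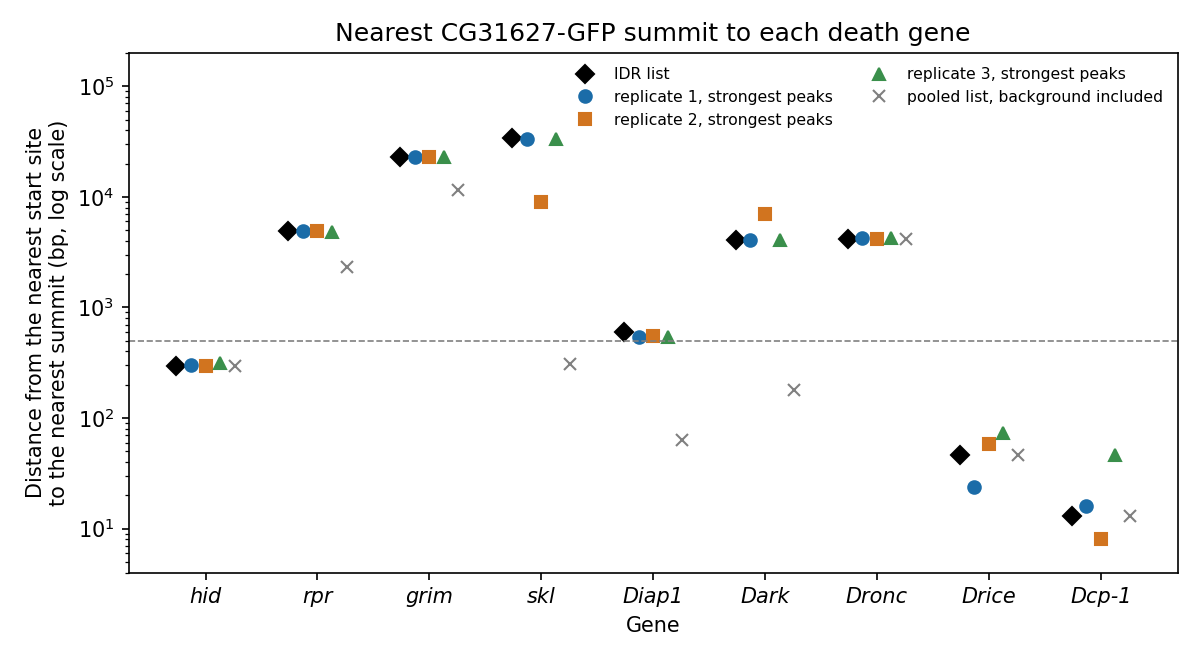
Distance in bp, on a log axis, from the nearest annotated start site of each gene to the nearest summit of the IDR list, of the strongest peaks of each library, and of the pooled list with its background. The dashed line marks 500 bp: hid, Drice and Dcp-1 lie below it in every list drawn, Diap1, Dark and skl only in the pooled list.

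Among the antagonists, hid had the strongest peak at a start site of any death gene. hid (FBgn0003997) lies on the minus strand of 3L at 18167745 to 18185641, with a single start site. Its peak, at 18185728 to 18186177, had its summit 293 bp upstream of that start site and a signal of 1329, rank 161, so that 97.9% of the IDR peaks were weaker. In replicates 1, 2 and 3 the peak had signals of 546, 328 and 453, which were ranks 154, 179 and 150, a mean rank of 161 ± 15.7 (SD, n = 3). The library summits lay 299, 298 and 312 bp upstream of the start site. Position and rank therefore varied little from library to library, as the IDR filter favours. The 17.9 kb body of hid, by contrast, held no IDR summit and none of the strongest peaks of any library, and its 4 pooled peaks all had q values above 0.05. Replicate 1 alone had summits there at a q value of 0.05 or less, 2 of them, 3636 and 3436 bp into the gene with q values of 4.46e-05 and 0.0203, ranks 10927 and 15669.

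The promoter peaks whose ranks were most like that of hid, by the smallest sum of absolute differences in log10 rank over the 3 libraries, belonged to Stt3A and bves, which share a peak on X, and to Fer1HCH on 3R. The X peak ranked 168, 176 and 149 in replicates 1, 2 and 3, a summed difference of 0.048, and the Fer1HCH peak ranked 170, 169 and 148, a summed difference of 0.0737. Stt3A encodes the catalytic subunit of the oligosaccharyltransferase and Fer1HCH the ferritin heavy chain.

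The sequence upstream of hid held many further peaks. Between hid and grim, 117 kb at 18185642 to 18302718 of 3L, there were 22 IDR summits, or 18.8 per 100 kb, beside 5.88 per 100 kb over 3L and 5.76 over the 6 arms. The strongest peaks gave 22, 20 and 21 summits there in replicates 1, 2 and 3, or 17.9 ± 0.85 per 100 kb (SD, n = 3), beside 5.84 ± 0.0551 over 3L. Every library placed peaks in this stretch at about the same density. Set beside consecutive stretches of the same length along the arms, 13 of 1141, or 1.14%, held at least 22 IDR summits, and the median was 6. The stretch contains 9 annotated genes besides the death genes, 4 of them protein-coding, yet no IDR summit fell within any of the 9, and hid was the only gene with a start site within 500 bp of one of the 22.

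The summits, and the strongest of them, were concentrated in the 60 kb nearest hid. Split at distances chosen after the values were seen, 20 of the 22 summits lay within 60 kb upstream of hid, 33.3 per 100 kb, with 31.1 ± 0.981 per 100 kb (SD, n = 3) over the strongest peaks of the libraries. Of these, 8 lay within 15 kb and 8 between 45 and 60 kb. All 5 summits of the stretch that ranked in the top 500 were within 60 kb, 4 of them within 15 kb. The remaining 2 summits, 90.4 and 95.8 kb upstream of hid, ranked 6246 and 4111. Of the 22 peaks, 17 held a summit of the strongest peaks of all 3 libraries. Of the 5 that did not, 1 had no summit of replicate 2 within its interval, and the 1 at 47.0 kb ranked 6437, 10360 and 24697 in replicates 1, 2 and 3, so replicate 1 alone had it among its strongest peaks.

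The strongest peak of the whole span was not at a promoter but 50.4 kb upstream of hid, 1275 bp from the start site of lncRNA:CR45937. Its summit, at 18236035, had a signal of 1401, rank 135, and library signals of 565, 383 and 456, ranks 143, 137 and 146. Its mean library rank was 142 ± 4.58 (SD, n = 3), so each library placed it slightly ahead of the hid promoter peak. The next beyond the promoter were at 9.54 kb, with a signal of 1251, rank 184, and library ranks of 174, 175 and 213, and at 5.02 kb, with a signal of 1098, rank 237, and library ranks of 212, 286 and 270. The fifth, at 8.88 kb, had a signal of 874, rank 432, and library ranks of 450, 417 and 375. These 4 distal peaks lay between genes, at 987 bp or more from any start site, and kept their place among the stronger peaks in each library. Those at 8.88 and 9.54 kb were nearer to the start site of lncRNA:CR45234 than to that of hid.

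**Figure D2:**
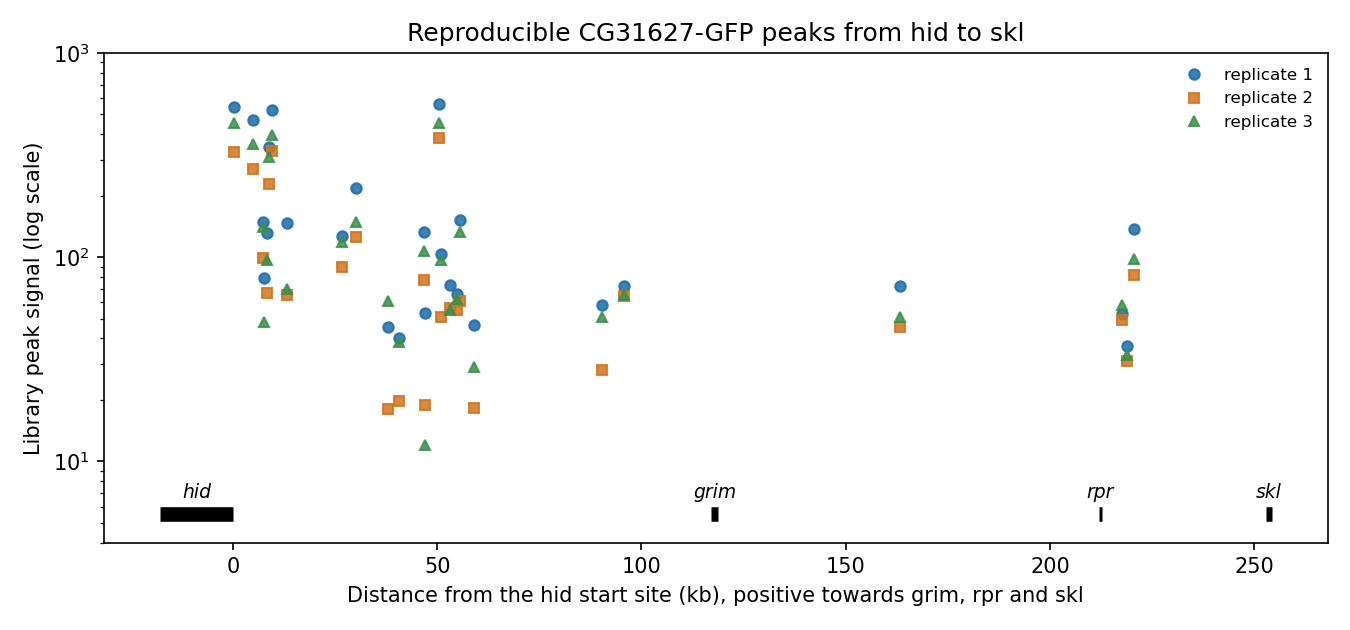
Signal of each library peak, on a log axis, within the IDR peaks from hid to skl, against distance from the hid start site in kb; black bars are gene bodies. Of the 26 peaks drawn, 20 lie within 60 kb upstream of hid, and a stretch of 67.4 kb with none holds grim.

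At grim the same lists held almost nothing. grim (FBgn0015946) lies at 18302719 to 18304417 on the minus strand of 3L, and its nearest IDR summits were 23.0 kb downstream and 44.4 kb upstream of its start site. Those summits bound a stretch of 67.4 kb without an IDR summit, the longest from hid to skl. Within 5 kb of the gene, replicate 2 alone listed peaks, 2 of them, and both had q values above 0.05. Between grim and rpr, 93.1 kb at 18304418 to 18397534, there was 1 IDR summit, rank 4653, or 1.07 per 100 kb, and each library had 1 of its strongest peaks there, ranked 4691, 4422 and 5478 in replicates 1, 2 and 3. Such sparse stretches were common, since 390 of 1434 stretches of that length, 27.2%, held no more than 1. Over the whole span from hid to rpr, gene bodies included, the density was 9.97 per 100 kb in the IDR list and 9.54 ± 0.435 (SD, n = 3) over the libraries, an average over a dense and a sparse part. Of 577 stretches as long as the whole span, 95, or 16.5%, held at least its 23 IDR summits, and the median was 13.

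rpr, the first of the antagonists to be described, had no IDR summit in its body or within 500 bp of its start site. The gene (FBgn0011706) occupies 901 bp at 18397535 to 18398435 on the minus strand of 3L. A group of 3 IDR summits lay 4892, 6112 and 7693 bp upstream, with ranks of 5228, 7627 and 2234, and no other annotated start site was nearer to any of them. The nearest had library signals of 52.5, 49.3 and 58.0, ranks 6542, 4072 and 4798, and the farthest, at 7693 bp, had signals of 137, 81.4 and 98.4, ranks 2085, 2229 and 2545. The strongest of the group was thus the most distant, and all 3 had a q value of 0.05 or less in every library. Nearer library peaks existed, at 660 bp in replicate 1 and 654 bp in replicate 3, with q values of 0.329 and 0.957, which is within the background those lists carry.

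skl (FBgn0036786), at 18438561 to 18439942, was the member farthest from an IDR summit, 33.8 kb from its start site. A summit of replicate 2 at 8969 bp was among the strongest of that library, rank 5731, while the strongest peaks of replicates 1 and 3 came no nearer than 33634 and 33644 bp. Below the strongest peaks, replicate 1 had a summit at 9053 bp, rank 10380, with a q value of 4.46e-05, and the pooled list one at 9043 bp, rank 9158, with a q value of 0.000601, whereas the nearest of replicate 3 at a q value of 0.05 or less was at 14396 bp. Closer to the gene, in the pooled list a summit at 305 bp had a q value of 0.944. The 4 antagonists thus ranged widely in the IDR list: hid carried a peak in the top 2.09% of the IDR list at its start site, rpr weaker peaks several kb away, and grim and skl none within 5 kb.

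Diap1 (FBgn0260635), on the minus strand of 3L at 16038410 to 16051034 with 5 annotated start sites, held 6 IDR summits within 5 kb. At least 6 were held by 2.3% of protein-coding genes, of all lengths, a cut set at the count of Diap1 itself. The strongest Diap1 summit lay in an intron, 654 bp downstream of the start site at 16046846. It had a signal of 785, rank 526, and library signals of 346, 195 and 238, ranks 456, 567 and 636. Another intronic summit, 1498 bp upstream of the same start site and 891 bp from that of lncRNA:CR43951, ranked 1496, with library ranks of 1292, 1393 and 2141. A weaker one, 599 bp upstream of the start site at 16042570, ranked 5384, with library signals of 59.6, 27.0 and 59.2. The body of Diap1 thus held 3 intronic summits and no reproducible summit at a start site.

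The other 3 summits counted for Diap1 lay outside the gene. One was in the 3′ UTR of CG5895, rank 2061, one was 110 bp from a start site of Mbs, the myosin-binding subunit of myosin phosphatase, rank 7417, and one was in an Mbs intron, rank 5942. The Mbs start-site peak was the weakest of the 17, and replicate 2 alone had it among its strongest peaks. Below the IDR threshold, a pooled summit 172 bp upstream of the Diap1 start site at 16046846 had a q value of 0.00481 and rank 10490. Replicate 1 had a peak 170 bp upstream of it with a q value of 4.46e-05, replicate 2 had one at 175 bp with a q value of 0.769, and replicate 3 listed none there. Another pooled summit, 63 bp upstream of the most upstream start site, had a q value of 0.0265 and rank 12172. Replicate 3 placed a peak 58 bp upstream of that start site with a q value of 0.00874. Replicate 1 had one 68 bp upstream of it with a q value of 0.396, and another 134 bp downstream with a q value of 0.000763. Replicate 2 had none with a q value of 0.05 or less nearer than 547 bp to any Diap1 start site.

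**Figure D3:**
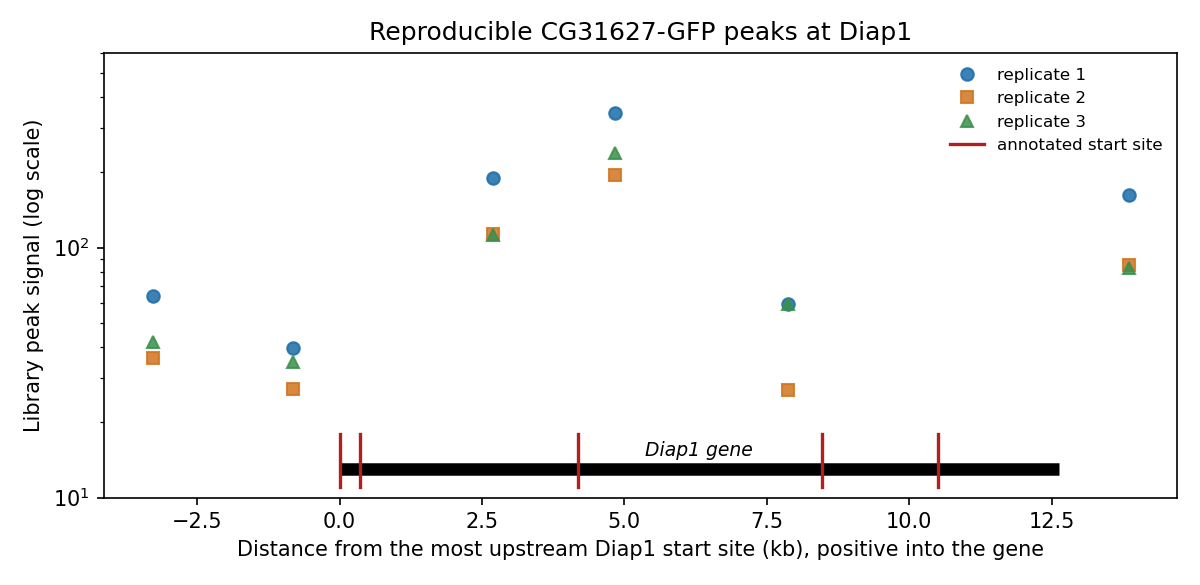
Signal of each library peak, on a log axis, at the 6 IDR peaks within 5 kb of Diap1, against distance in kb from the most upstream start site, positive into the gene; red lines are the 5 start sites. The intronic peak 654 bp downstream of the third start site is the highest in every library, with signals of 346, 195 and 238.

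Dark (FBgn0263864), on the plus strand of 2R at 17020027 to 17026703, had 3 IDR summits within 5 kb, all at start sites of its neighbours. One, 4099 bp upstream, was 34 bp from a start site of Ehbp1 and ranked 6730. The other pair, 6870 and 7069 bp downstream of the Dark start site, ranked 1292 and 1598. The first was 96 bp from the start site of asRNA:CR44390 and the second 94 bp from one of RhoGEF2, which encodes an exchange factor for Rho1. Each of these 3 peaks held a summit of 2 libraries, not of all 3. At the pair, however, no library lacked a peak. Replicate 1 listed 2, ranks 979 and 1512, while replicates 2 and 3 each listed 1 that overlapped both IDR peaks, ranks 1328 and 1752. At the start site of Dark itself the pooled list had a summit 179 bp downstream with a q value of 0.0197, rank 11880. It had another 479 bp upstream with a q value of 0.291. Replicate 1 had a summit 211 bp downstream, rank 9327, with a q value of 4.46e-05, and one 564 bp upstream with a q value of 0.0526. Replicate 3 had one 422 bp upstream with a q value of 0.0404, and replicate 2 none nearer than 6943 bp. Within 500 bp of the Dark start site, no 2 libraries thus had a summit on the same side.

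Dronc (FBgn0026404), on the plus strand of 3L at 9968479 to 9971002, had a single IDR summit within 5 kb. It lay 4182 bp downstream of the Dronc start site and 95 bp from start sites of vnc, an N-terminal acetyltransferase gene, and CG42455, and ranked 5314, with library ranks of 5560, 3809 and 6105. Near the start site of Dronc itself, replicates 2 and 3 listed summits at 201 and 94 bp with q values of 0.657 and 0.301, and replicate 1 listed none. Neither apoptosome gene therefore had a start-site peak that passed the IDR threshold.

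Both effector caspase genes had one, close to the start site and with a signal below the IDR list's median of 207. At Drice (FBgn0019972), on the plus strand of 3R at 29799658 to 29801584, the summit lay 46 bp upstream, with a signal of 155, rank 5279. Its library signals were 54.9, 34.8 and 62.0, ranks 6284, 5745 and 4450, and the library summits lay 24, 58 and 73 bp upstream. At Dcp-1 (FBgn0010501), on the plus strand of 2R at 23551313 to 23553547, the summit lay 13 bp into the gene, with a signal of 168, rank 4845. Its library signals were 75.6, 46.9 and 47.0, ranks 4466, 4280 and 5947, and the library summits lay within 46 bp of the start site. These peaks were weaker than 68.4% and 62.8% of the IDR list, whereas the hid peak was stronger than 97.9% of it.

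Neither caspase peak belongs to the caspase gene alone. The Drice summit was 258 bp from the start site of Rnb, and the Dcp-1 summit was 225 bp from a start site of pita, which encodes a zinc-finger insulator protein and whose annotated span contains Dcp-1. Stronger peaks stood nearby at other genes. A summit 3401 bp downstream of the Drice start site, 114 bp from a start site of Etfb and 137 bp from one of CG7789, ranked 1056. Summits on either side of Dcp-1 ranked 2216, near the start sites of wmd and levy, and 3040, at another start site of pita. Etfb encodes a subunit of the electron transfer flavoprotein and levy a subunit of cytochrome c oxidase.

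**Figure D4:**
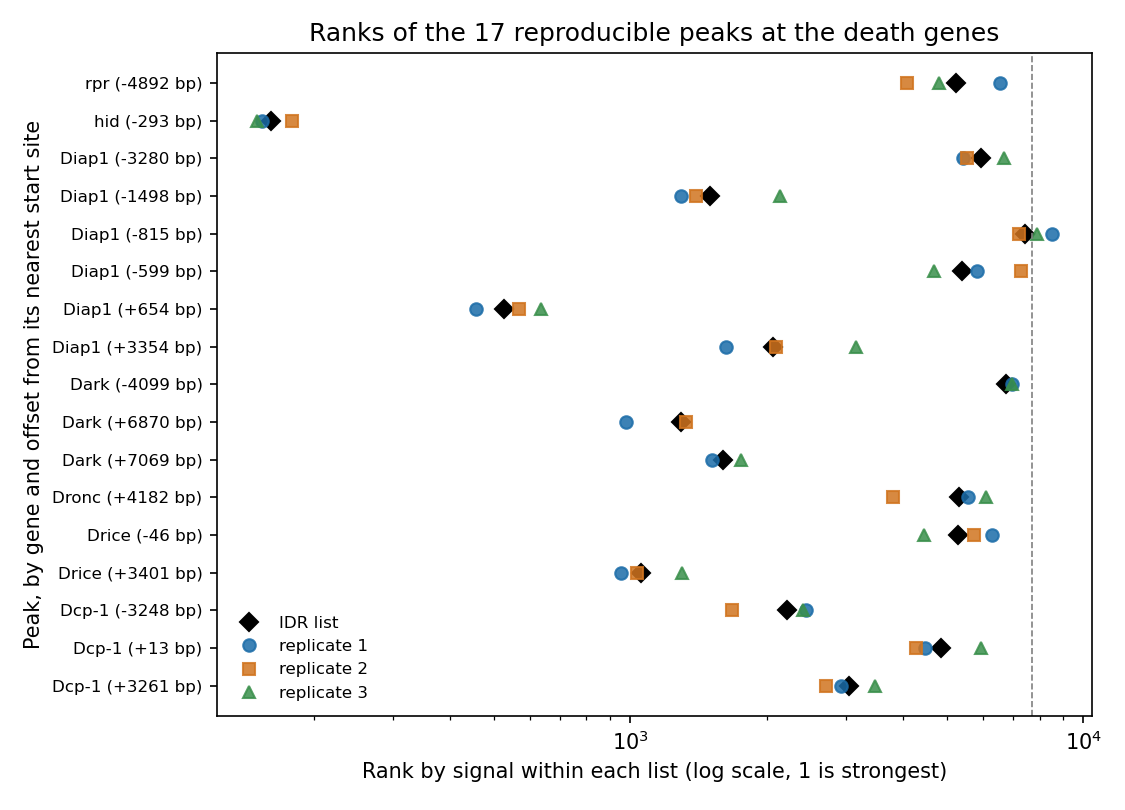
Rank by signal, on a log axis, of the 17 IDR peaks within 5 kb of the death genes in the IDR list and in each library, with the offset from the nearest start site of that gene; the dashed line is the number of IDR peaks. The hid peak, with ranks of 150 to 179 in the libraries, is the strongest, followed by the Diap1 intronic peak, with ranks of 456 to 636.

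Lists that hold background gave more members. The pooled list at a q value of 0.05 or less added Diap1 and Dark to the start-site count, for 5 of 9, beside 31.3% of all genes. The whole lists of replicates 1, 2 and 3 gave 6, 5 and 7 of 9, beside 47.5%, 37.7% and 43.5% of all genes. They disagreed on skl, Dark and Dronc, and agreed on hid, Diap1, Drice and Dcp-1. In none of these lists did rpr or grim have a summit within 500 bp of the start site. In the genome sequence, every 31-base word in the 500 bp on either side of each start site of the 9 genes occurs once, as do 99.6% of those between hid and grim. How reads mapped there was not tested.

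Short sequence words were counted within 50 bp of the summits and in promoters, taken as 250 bp before to 50 bp after a start site. These windows differ in length, so shares are compared only within a kind of window. Between hid and grim, TATAAA was found at 7 of 22 summits, or 31.8%, beside 20.2% of all IDR summits, GAGAG at 3, or 13.6%, beside 8.47%, the A-rich word TTTAAAAA also at 3, beside 6.12%, the p53 decamer at 2, or 9.09%, beside 1.98%, and CACACACA at 1, or 4.55%, beside 0.713%. CGATA, found at 15.4% of all IDR summits, was at none of the 22, nor were TATCGATA, which contains it, the E-box CACGTG, the ecdysone receptor half-site AGGTCA or that receptor's palindrome. The palindrome was found at no IDR summit and in 3 of 23998 promoters. The 17 summits within 5 kb of the death genes differed from these 22, and the hid promoter summit is in both sets. Of the 17, CGATA was found at 4, TATCGATA at 1, beside 1.74% of all IDR summits, TATAAA at 5 and TTTAAAAA at 2. GAGAG and the other words were found at none of the 17. Both strands were searched, and at 22 or 17 summits these counts carry little weight.

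Among the promoters of the death genes, GAGAG was found in those of all 4 antagonists, with 3 matches at rpr, 4 at hid, 4 at grim and 10 at skl, some of them overlapping, beside 32.4% of all promoters with at least 1. It was also found at 2 of the 5 Diap1 promoters, with 4 matches at the start site at 16046846 and 3 at that at 16050671. TATAAA was found at rpr, grim, skl, Dark and Drice, beside 41.3% of promoters. The most upstream Diap1 promoter held 2 matches to TATCGATA, beside 6.8% of promoters. CGATA, found in 43.6% of promoters, was held by Dark, with 2, and Dcp-1, with 1. It was also held by that Diap1 promoter, within TATCGATA and again 143 bp upstream of the start site. CACGTG was found at hid and skl, beside 4.05% of promoters, and TTTAAAAA at hid and Drice, beside 12.2%. CACACACA was found at grim, beside 5.86%, and the p53 decamer at the Diap1 start site at 16042570, beside 5.32%. Dronc held none of the words.

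Among 30 other cell death genes, 11 had an IDR summit within 500 bp of a start site, or 36.7%, and 12, 12 and 11 had one among the strongest peaks of replicates 1, 2 and 3. The strongest were at Cyt-c-d, one of the cytochrome c genes, with rank 399, Traf6, rank 1581, eff, a ubiquitin-conjugating enzyme gene, rank 2329, and Tango7, annotated as eIF3m, rank 2410. None of these ranked as high as hid. The other 7 were at hpo, Prx4, HtrA2, puc, Traf4, p53 and Debcl, with ranks of 2412 to 6344. Of 16 regulators of the death genes in the steroid response, 8 had one, and 9, 8 and 11 did among the strongest peaks of the libraries. They were led by Eip75B, a nuclear receptor gene, rank 530, usp, which encodes the partner of the ecdysone receptor, rank 1443, CrebA, rank 1616, and nej, the fly CBP, rank 2870, and the other 4 were Eip74EF, EcR, fkh and br, with ranks of 3065 to 7078. For IDR summits both lists stand beside the same 22.3% of all genes and 26.4% of protein-coding genes. For the strongest peaks of replicates 1, 2 and 3 they stand beside 22.4%, 20.5% and 23.1% of all genes. Both lists were chosen with earlier results of these data known and were not tested.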

How the data were processed

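CG31627-GFP was measured by chromatin immunoprecipitation and sequencing in 3 libraries of a single group. The 5 peak lists on dm6 were used: 1 per library, 1 pooled and 1 past the IDR threshold. Their signal values, and their q values as −log10, are as deposited by the authors. Per the deposited listing, library and pooled lists deliberately keep background for the IDR step. The aligner and peak caller: not given in the sources used here. Without read counts in the lists, depth is unknown. Signal tracks, control data and the dm3 lists were not analysed here, and 1 peak on chromosome Y was left out.

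Summits were compared with the Ensembl release 115 annotation, whose chromosome names and lengths match those of the Release 6 sequence, in Python 3.11.15 with numpy 2.4.6 and pandas 2.3.3. A promoter summit lay within 500 bp of any start site. A library peak was assigned to an IDR peak when its summit fell inside it, the nearest one where there were several. No line was shared between library lists. The code was tested on simulated data.

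The 9 genes, the further lists and the rules were chosen with earlier results of these data known. Named genes were all 9 members, genes at their start-site summits, the 3 genes most like hid, the 5 strongest peaks from hid to rpr, and up to 4 of each further list with the strongest promoter peak. Other genes given with values are neighbours of the peaks described or were named from the lists after their values were seen. Alternatives were other windows, lists and start sites, and omission of each replicate, for which IDR peaks had to hold a summit of the strongest peaks of each remaining library.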

Additional observations from a re-analysis of the deposited data

How the results depend on the processing

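No paired analysis was possible because the study has a single group. Of 58 alternatives, 45 left a value within 1.5 times, or within 1 SD of the libraries, of that reported. Some of the 45 had little or no room to move. All 9 members are protein-coding, and protein-coding start sites alone changed no value. Leaving a library out of counts of 3, 3 and 3 can only give 3. For the IDR list, leaving a library out kept the peaks called on all 3 libraries and filtered them further. Counts and densities from that list could therefore only stay or fall. Counting summits within 100 bp once left the density from hid to rpr unchanged. The overlapping peaks named between hid and grim have summits farther apart than that. The 3 genes with a start-site summit became 1 (hid) among the 3858 IDR peaks with the highest signal and 5 in the pooled list at a q value of 0.05, with a range of 3 to 3 without each replicate. At 250 bp hid was lost, for 2 genes, and at 1000 bp Diap1 was gained, for 4. The mean over the libraries' strongest peaks, 3, became 6 in the whole library lists and stayed at 3 without each replicate. Within the gene body alone, 2 genes, Diap1 and Dcp-1, had a summit in place of 7, and without each replicate 6 to 7 did. Density from hid to rpr fell from 9.97 to 5.64 per 100 kb among those 3858, and was 8.67 to 9.1 without each replicate. Between hid and grim, 13 summits were among the 3858 and 19 to 20 were left without each replicate. Ranks outside 1 SD were 179 for hid in replicate 2, 6284 for Drice in replicate 1 and 5947 for Dcp-1 in replicate 3. With background included, nearest summits moved to 2308 bp for rpr, 11558 for grim, 305 for skl, 63 for Diap1 and 179 for Dark. The lists used differ in length by construction, and the cause of other shifts was not tested. Without read counts, a start site with no listed peak cannot be called unbound.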
